A study of Mus musculus with 5 samples.

Results

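The 9 genes described here encode signals of the TGF-beta and activin branch of a growth factor family, with their receptors and an induced matrix protein: the ligands Tgfb1, Tgfb2 and Tgfb3, the activin and inhibin beta subunits Inhba and Inhbb, the receptors Tgfbr1, Tgfbr2 and Tgfbr3, and Tgfbi. They were taken by gene symbol, and all 9 of the 20355 genes in the tables were found in each of the 5 libraries. Cells of the mouse colon mesenchyme, the tissue under the epithelium, were isolated from untreated C57/BL6 mice of 10 weeks and profiled by Drop-seq, a droplet method that counts the 3′ ends of polyadenylated transcripts by molecular barcode (UMI). There were 2 biological replicates, the first run in 2 collections (1A and 1B) and the second in 3 (2A, 2B and 2C). Epithelium had been depleted with EDTA and DTT and the mesenchyme digested with Collagenase XI and Dispase. All animals belonged to this untreated group, so the comparisons are between cell classes. The labels do not give the number of animals behind a replicate, and p-values measure only how differences between classes vary between these 2 suspensions.

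TGF-beta ligands are secreted in a latent form, bound to a propeptide and often to a latent TGF-beta binding protein in the matrix, and are released by integrins or proteases. The active dimer binds the type II receptor Tgfbr2, which recruits and phosphorylates the type I receptor Tgfbr1, and Smad2 and Smad3 carry the signal to the nucleus with Smad4. Betaglycan, the product of Tgfbr3, is a co-receptor that presents TGF-beta2 in particular and also binds inhibin. Activins are dimers of the subunits encoded by Inhba and Inhbb and act on the same Smads through their own receptors. In the gut these signals are known for restraining lymphocytes, for wound repair and for the deposition of matrix by fibroblasts, and Tgfbi is a matrix protein named for its induction by TGF-beta.

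The RefSeq promoter table of GRCm38.p6 held 7 of the 9 genes (not Tgfb3 and Tgfbr3). Sequence before the start of transcription is shown for 3 genes on which the results turn: Tgfb2, which was highest in glia-like cells, and Inhba and Tgfbi, which were high in the same clusters of fibroblast-like cells. Each is written 5′ to 3′ on the gene's strand, with matches to TATAAA, the TATA box, and CAGACA, the CAGA box that Smad3 and Smad4 can bind, in capitals.
Tgfb2, chr1:186705990-186706239, minus strand: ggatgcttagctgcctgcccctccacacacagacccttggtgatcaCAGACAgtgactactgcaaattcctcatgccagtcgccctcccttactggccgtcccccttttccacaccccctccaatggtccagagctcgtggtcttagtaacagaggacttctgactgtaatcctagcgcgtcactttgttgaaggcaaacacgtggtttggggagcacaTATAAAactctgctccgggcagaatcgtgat
Inhba, chr13:16011601-16011850, plus strand: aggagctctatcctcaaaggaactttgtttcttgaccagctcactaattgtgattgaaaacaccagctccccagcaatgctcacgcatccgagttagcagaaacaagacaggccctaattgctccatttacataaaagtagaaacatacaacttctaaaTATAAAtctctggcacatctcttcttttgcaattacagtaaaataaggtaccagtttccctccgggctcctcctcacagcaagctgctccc
Tgfbi, chr13:56609336-56609522, plus strand: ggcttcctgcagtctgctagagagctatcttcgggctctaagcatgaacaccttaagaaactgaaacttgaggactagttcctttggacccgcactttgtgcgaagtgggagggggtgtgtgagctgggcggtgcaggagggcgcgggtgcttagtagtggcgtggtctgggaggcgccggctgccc
The stretch of Tgfbi was ended at the GENCODE M21 gene start, 63 bases before the RefSeq start. Motifs were searched on both strands in the 250 bases before each RefSeq start. Counted from the start, Tgfb2 held the Smad element at position -204 and the TATA box at -31. The match in Inhba was to the TATA box, at -91. Of 32851 promoters in the table, 17.1% held CAGACA and 12.4% held TATAAA. The AP-1 site, TGANTCA, was in none of the 8 promoters listed for these genes and in 6.75% of all. GC content of the 250 bases was 43.2% for Inhba and 53.6% for Tgfb2 against a median of 52.4% over the table, and 75.2% for Tgfb1. These matches describe the letters only.

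On mm10 (GENCODE M21) Tgfb1 lies at chr7:25687002-25705077, Tgfb2 at chr1:186622792-186705989, Tgfb3 at chr12:86056745-86079041, Inhba at chr13:16011851-16031621, Inhbb at chr1:119415465-119422248, Tgfbr1 at chr4:47353222-47414931, Tgfbr2 at chr9:116084293-116175360, Tgfbr3 at chr5:107106570-107289629 and Tgfbi at chr13:56609523-56639562. All are protein-coding. An exon of an antisense gene overlaps Tgfb2 (Gm29491) and Tgfb3 (Gm37804 and Gm48008), and an exon of Gm43422 overlaps Tgfbr3 on the same strand. These 4 were not analysed here, and the labels do not say how such reads were counted.

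Of 7935 barcodes, 5982 were retained (860 to 1726 per collection, median 1330 UMIs and 756.5 genes), and 21 clusters were assigned to classes by markers. Collections 2A and 2B shared 5 retained barcodes, 1A and 2B shared 1, and no other pair shared any. Each class was tested on UMIs summed per replicate, 73009 to 2360716 per sum, and levels are counts per 1000000 UMIs (CPM). Fibroblast-like cells were most numerous (3124), followed by blood endothelial-like (575), macrophage-like (476), T, natural killer or innate lymphoid-like (389, T/ILC-like below), enteric glia-like (299), smooth muscle-like (242), pericyte-like (240), B cell-like (229), lymphatic endothelial-like (166) and dendritic-like (119). Between 4 and 12 of the fixed markers were raised in each cluster given a name. Only cells with at most 10% mitochondrial (mt-) UMIs were retained. Without that limit, clustering gave 544 smooth muscle-like cells against 242 with it, and 3218 fibroblast-like cells against 3124. The smooth muscle-like levels below therefore describe only the cells within the limit. Summed fibroblast markers stood at 9051 and 11372 CPM in smooth muscle-like cells, against 40328 and 38480 CPM in fibroblast-like cells and 934 to 4499 CPM in the 8 other classes tested. Pericyte-like cells held 10937 and 8644 CPM of smooth muscle markers, against 23827 and 20038 CPM in smooth muscle-like cells, and 4 genes of each of these lists were among their 10 leading genes. Immediate-early and heat-shock genes, known to be induced by tissue digestion, took 5.02% ± 0.24 (SD, n = 2) of UMIs in glia-like cells, 2.66% to 3.61% in the other stromal and endothelial classes and 0.61% to 1.59% in the immune classes.

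**Figure D1:**
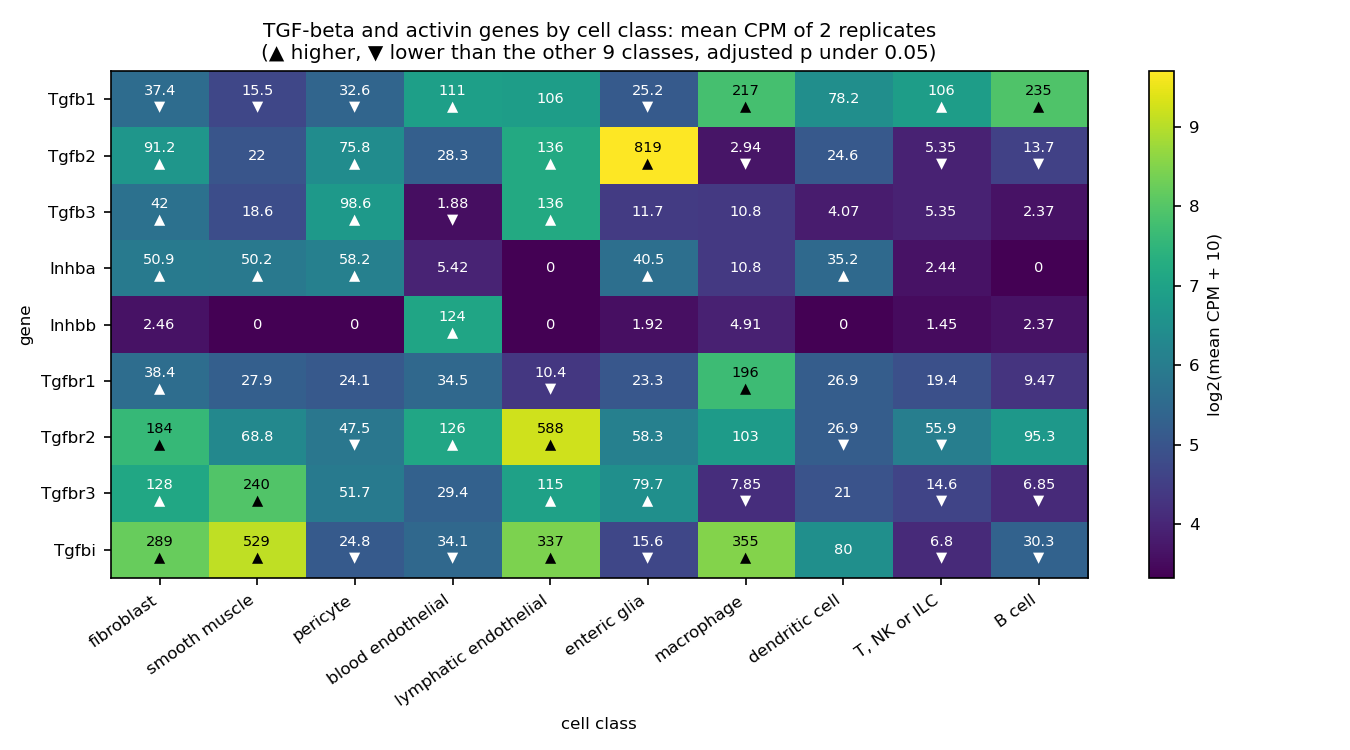
Each cell gives the mean CPM of 2 replicates for a gene (rows) in a cell class (columns), coloured on a log2(CPM + 10) scale, with triangles for adjusted p under 0.05 against the other 9 classes. Tgfb2 stands out in glia-like cells at 819 CPM, Inhbb in blood endothelial-like cells at 124 CPM and Tgfbr2 in lymphatic endothelial-like cells at 588 CPM.

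The 3 TGF-beta ligands were highest in different cells. Tgfb2 was at 819 ± 217 CPM (SD, n = 2) in enteric glia-like cells, 6.01-fold above the next class, lymphatic endothelial-like cells. By collection its glial level was 1054 and 888 CPM in 1A and 1B and 614, 672 and 715 CPM in 2A, 2B and 2C. Both collections of replicate 1 were above the 3 of replicate 2, and all 5 were above every collection of every other class. The log2 fold change against the other 9 classes was 5.23 ± 0.17 (SE, adjusted p = 1.0e-204, edgeR's quasi-likelihood test). Glia-like cells, which ensheathe neurons of the gut wall, held 5.1% of all UMIs and 41.9% ± 3.9 of the Tgfb2 UMIs, the same share as the fibroblast-like cells with 45.0% of all UMIs. After each cell was thinned to 500 UMIs, a Tgfb2 UMI was left in 26.7% of 296 glia-like cells (exact 95% interval 21.7 to 32.1%), in 4.28% of 3012 fibroblast-like cells and in 0 of 464 macrophage-like cells, which by the limit of 3 counts allows a share of cells with a UMI of up to 0.647% at this depth. Unthinned, the shares were 53.8%, 10.5% and 0.63% at median depths of 1525, 1286.5 and 1782 UMIs. Egr1, an immediate-early transcription factor, was also highest in glia-like cells, at 13929 ± 694 CPM against 4548 in the next class, and its part in the Tgfb2 level was not tested.

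**Figure D2:**
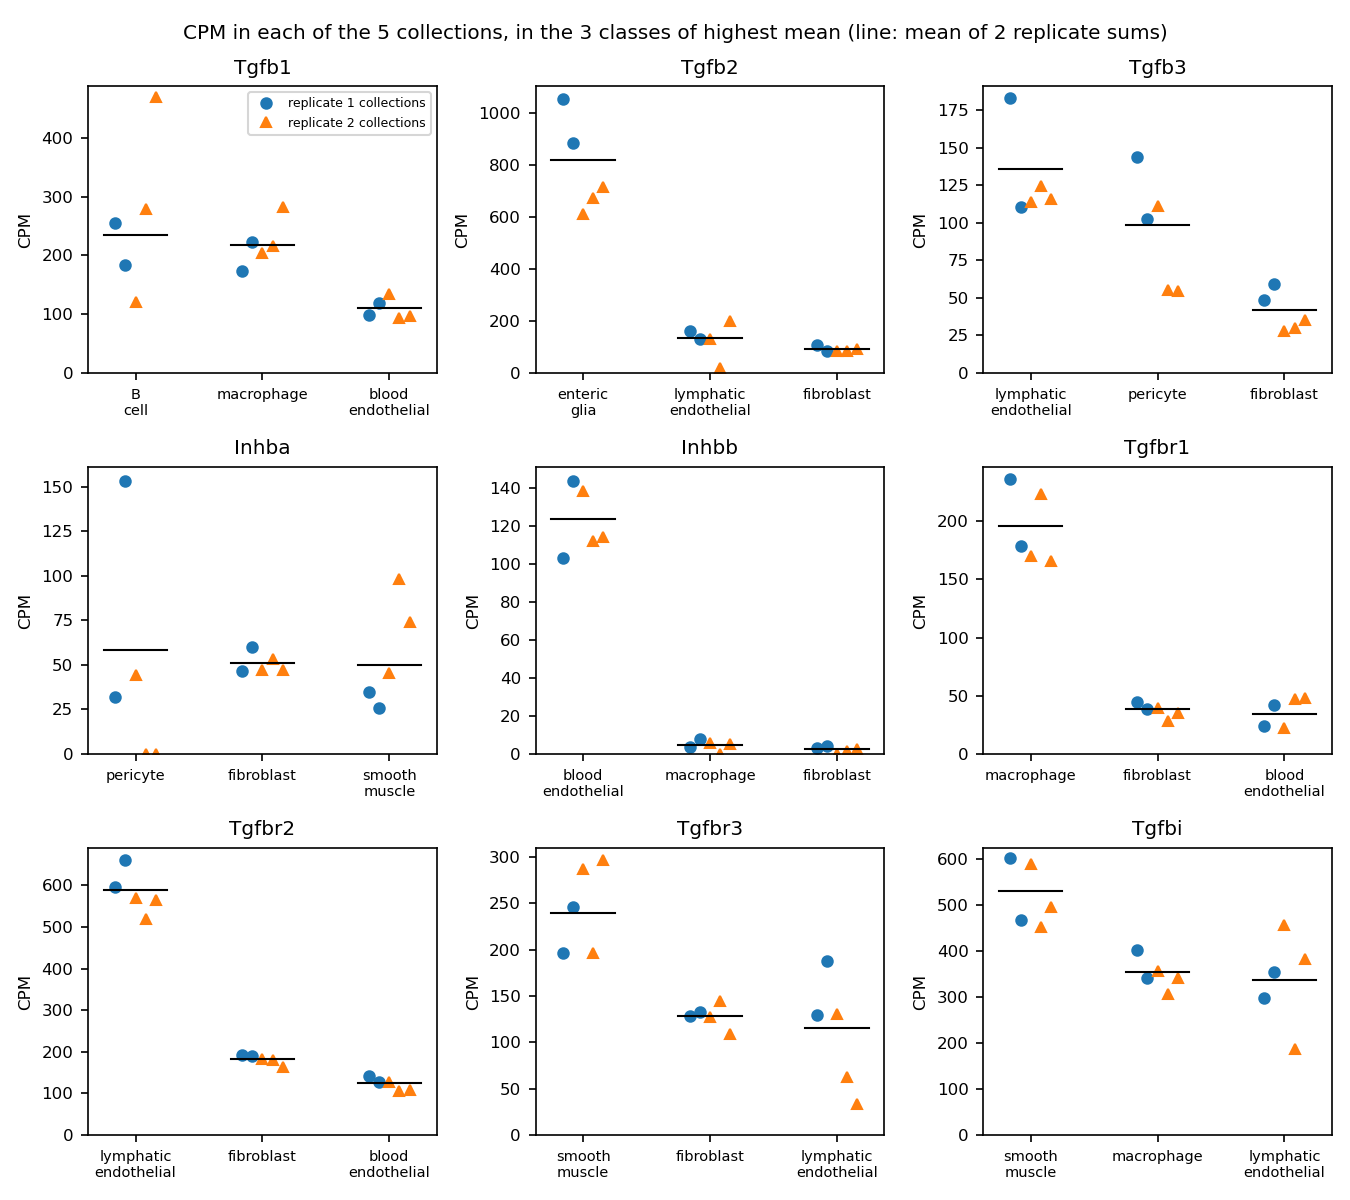
Points give the CPM of a gene in each of the 5 collections (circles replicate 1, triangles replicate 2) for the 3 classes of highest mean, and lines the mean of the 2 replicate sums. The 5 glia-like points of Tgfb2 lie between 614 and 1054 CPM, above those of the next classes, whereas for Inhba the pericyte-like point of 1B lies at 153 CPM and those of 2B and 2C at 0.

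Tgfb2 was also called higher in other stromal classes, at levels below that of glia-like cells. Lymphatic endothelial-like cells had 136 ± 17.9 CPM (log2 fold change 2.17 ± 0.31, adjusted p = 7.6e-11), fibroblast-like cells 91.2 ± 8.04 CPM (1.81 ± 0.19, adjusted p = 1.8e-19) and pericyte-like cells 75.8 ± 36.9 CPM (1.18 ± 0.44, adjusted p = 0.040). In lymphatic endothelial-like cells the collections read 160, 132, 130, 20.8 and 199 CPM from 1A to 2C, with 1 UMI behind the low value of 2B. The pericyte call rested on 19 UMIs and had an adjusted p of 0.080 without 1B, 0.199 without 2A and 0.079 without 2B. Macrophage-like cells held 3 Tgfb2 UMIs (2.94 ± 1.37 CPM), T/ILC-like cells 3 (5.35 ± 0.66 CPM) and B cell-like cells 2 (13.7 ± 19.4 CPM), and all 3 were called lower. The B cell call was lost without 1A (adjusted p = 0.163) and without 1B (0.057).

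Tgfb1, the ligand known for restraining lymphocytes, was highest in B cell-like and macrophage-like cells. It was at 235 ± 16.9 CPM in B cell-like cells (log2 fold change 1.72 ± 0.26, adjusted p = 7.9e-10) and at 217 ± 27.6 CPM in macrophage-like cells (2.05 ± 0.17, adjusted p = 4.9e-31). Across 1A, 1B, 2A, 2B and 2C the B cell-like level was 256, 184, 121, 278 and 469 CPM, from 29, 18, 4, 7 and 7 UMIs, and the macrophage-like level 174, 222, 204, 216 and 283 CPM. The replicates of these classes overlapped, so their order is not resolved, and in replicate sums both stood above the third class. Blood endothelial-like cells followed at 111 ± 2.79 CPM (0.84 ± 0.19, adjusted p = 2.8e-05), and T/ILC-like cells were at 106 ± 1.94 CPM. The replicates of lymphatic endothelial-like cells (106 ± 41.5 CPM) overlapped those of both. T/ILC-like cells were called higher (0.62 ± 0.26, adjusted p = 0.039), but not without 1A (adjusted p = 0.149), 1B (0.100) or 2C (0.053). Lymphatic endothelial-like cells, at adjusted p = 0.14, were not called, nor were dendritic-like cells at 78.2 ± 27.6 CPM (adjusted p = 0.86).

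Tgfb1 was lower in the stromal classes. It stood at 37.4 ± 0.15 CPM in fibroblast-like cells (log2 fold change -0.78 ± 0.20, adjusted p = 0.00026), with glia-like cells at 25.2 ± 7.89 CPM (-1.49 ± 0.40, adjusted p = 0.00076) and smooth muscle-like cells at 15.5 ± 4.01 CPM (-2.32 ± 0.54, adjusted p = 0.00012), the last from 5 UMIs. Pericyte-like cells (32.6 ± 26.0 CPM, 8 UMIs) were called lower at adjusted p = 0.031, which rose to 0.081 without 1A, 0.199 without 1B and 0.056 without 2C. Because fibroblast-like cells were so numerous they still held 21.7% of the Tgfb1 UMIs, as did blood endothelial-like cells, and macrophage-like cells held 28.2%.

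Tgfb3 was found mainly in lymphatic endothelial-like cells, pericyte-like cells and fibroblast-like cells. Its mean level was 136 ± 25.3 CPM in lymphatic endothelial-like cells (log2 fold change 3.59 ± 0.36, adjusted p = 1.8e-21), 98.6 ± 31.3 CPM in pericyte-like cells (3.09 ± 0.46, adjusted p = 6.2e-10) and 42.0 ± 15.6 CPM in fibroblast-like cells (1.99 ± 0.28, adjusted p = 2.2e-11). The lymphatic level was 183 CPM in 1A and 110, 114, 125 and 116 CPM in 1B, 2A, 2B and 2C. The pericyte-like level was 144, 102, 111, 55.4 and 54.7 CPM in the same order, so these classes overlapped. In fibroblast-like cells 1A and 1B gave 48.4 and 58.9 CPM and 2A, 2B and 2C gave 27.7, 30 and 35.5 CPM, with no overlap between replicates. Lymphatic endothelial-like cells, which line the vessels that drain tissue fluid, held 17.8% of the Tgfb3 UMIs and 3.8% of all UMIs. Blood endothelial-like cells, with 3 UMIs in all, were called lower (adjusted p = 0.00032), a call lost without 1B and without 2C (adjusted p = 1.0 each).

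**Figure D3:**
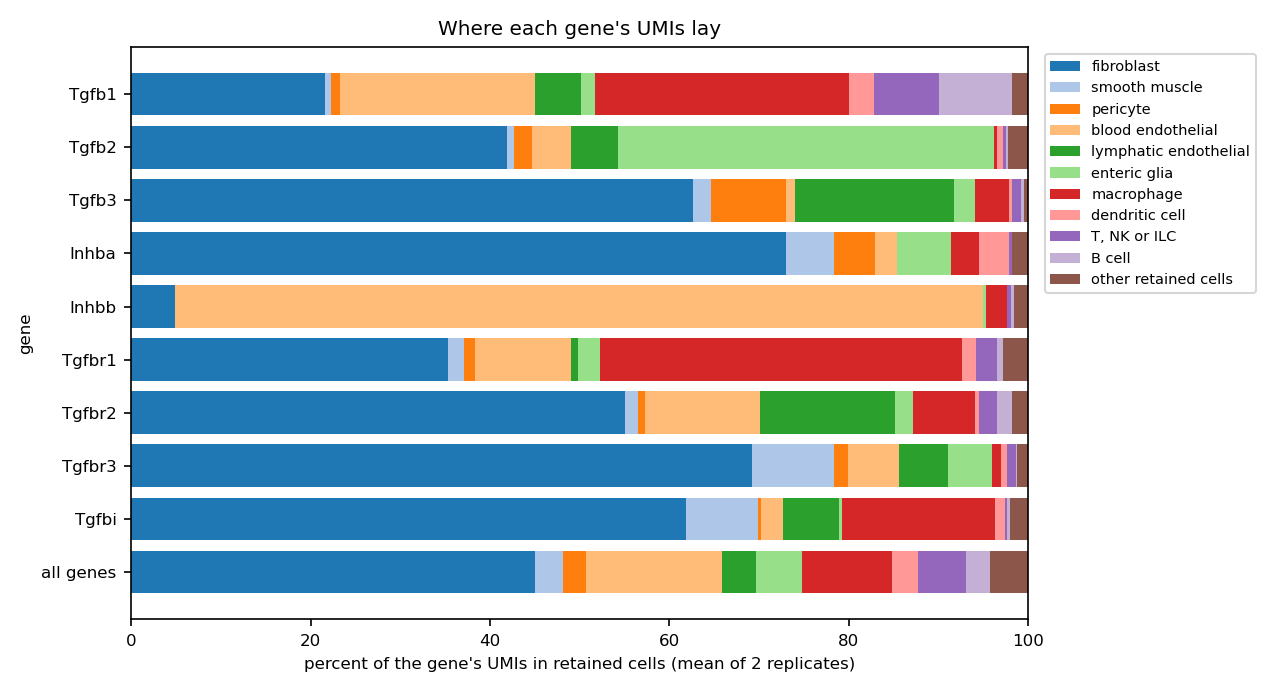
Horizontal bars divide each gene's UMIs in retained cells among the 10 tested classes and the remaining cells, as the mean percent of 2 replicates, with all genes together in the lowest bar. Blood endothelial-like cells hold 90.0% of Inhbb, glia-like cells 41.9% of Tgfb2 and macrophage-like cells 40.4% of Tgfbr1.

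The activin subunits were found in different classes. Inhbb was at 124 ± 1.38 CPM in blood endothelial-like cells, with 103 and 144 CPM in 1A and 1B and 139, 112 and 115 CPM in 2A, 2B and 2C. The next class, macrophage-like cells, was at 4.91 ± 1.36 CPM, and no collection of any other class exceeded 10.2 CPM. Blood endothelial-like cells held 90.0% ± 2.0 of all Inhbb UMIs (adjusted p of the higher call = 8.0e-64). No Inhbb UMI was found among 391470 UMIs of lymphatic endothelial-like cells, so the blood endothelial-like level was at least 16.1-fold higher at a floor of 3 counts over the class. Pericyte-like, smooth muscle-like and dendritic-like cells also had none (at least 10.7-fold, 13.2-fold and 12.1-fold).

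Inhba, whose homodimer is activin A, was a stromal gene at low level. Its mean was highest in pericyte-like cells (58.2 ± 58.3 CPM), but replicates of neighbouring classes overlapped all down the order, so the order is not resolved. Fibroblast-like cells had 50.9 ± 2.43 CPM (adjusted p = 3.7e-18), with 46.7, 60.0, 47.3, 53.2 and 47.3 CPM from 1A to 2C. They held 73.0% ± 13.9 of the Inhba UMIs and 45.0% of all UMIs. The smooth muscle-like class had 50.2 ± 27.7 CPM (16 UMIs, adjusted p = 4.9e-05) and the glia-like class 40.5 ± 40.6 CPM (21 UMIs, adjusted p = 4.3e-05). In glia-like cells 1A and 1B gave 67.7 and 70.7 CPM and the other 3 collections 0 to 21.2 CPM, and the call was lost with DESeq2 (adjusted p = 0.056). In pericyte-like cells 12 of 16 UMIs came from 1B (153 CPM, against 32.0 in 1A, 44.4 in 2A and 0 in 2B and 2C), and in dendritic-like cells 10 of 12 UMIs did (134 CPM). Their calls (adjusted p = 2.2e-05 and 0.0024) were lost without 1B (adjusted p = 0.25 and 0.71). Macrophage-like cells had 10 UMIs in replicate 1 and 1 in replicate 2 (adjusted p = 0.44). No Inhba UMI was found in lymphatic endothelial-like or B cell-like cells, so no fold change against the other classes is given.

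The signalling receptors were highest in different classes from each other. Tgfbr2, the type II receptor, reached 588 ± 49.1 CPM in the lymphatic endothelial-like class, 3.20-fold above fibroblast-like cells (log2 fold change against all other classes 2.89 ± 0.17, adjusted p = 1.7e-62). The collections gave 596, 662, 570, 519 and 564 CPM from 1A to 2C, and no collection of another class exceeded 192 CPM. After thinning, a Tgfbr2 UMI was left in 20.8% of 159 lymphatic endothelial-like cells (exact 95% interval 14.7 to 27.9%), in 5.75% of 557 blood endothelial-like cells and in 1.71% of 117 dendritic-like cells (54.8%, 24.3% and 6.72% unthinned, at median depths of 1529.5, 1854 and 2127 UMIs). Fibroblast-like cells were at 184 ± 10.5 CPM (1.31 ± 0.13, adjusted p = 6.1e-22), and blood endothelial-like cells at 126 ± 13.4 CPM (0.58 ± 0.17, adjusted p = 0.0024, 0.059 without 1A). Dendritic-like (26.9 ± 3.47 CPM, 8 UMIs, adjusted p = 0.00019), T/ILC-like (55.9 ± 3.14 CPM, adjusted p = 0.010) and pericyte-like cells (47.5 ± 16.9 CPM, 12 UMIs, adjusted p = 0.029) were lower. The T/ILC call was lost without 1B (adjusted p = 0.054), 2B (0.060) or 2C (0.063), and the pericyte call without 1A (0.186) or 2A (0.170).

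Tgfbr1, the type I receptor, was highest in macrophage-like cells at 196 ± 17.0 CPM, 5.09-fold above the next class (log2 fold change 3.30 ± 0.22, adjusted p = 1.6e-48). Its level there was 236 and 179 CPM in 1A and 1B and 170, 223 and 166 CPM in 2A, 2B and 2C, all above the highest collection of any other class (66.5 CPM, in pericyte-like cells of 2A, from 3 UMIs). Fibroblast-like cells followed at 38.4 ± 5.18 CPM and were called higher (0.67 ± 0.24, adjusted p = 0.012, 0.070 without 2A and 0.068 with DESeq2). The replicate values of neighbouring classes overlapped from fibroblast-like cells down to B cell-like cells (9.47 ± 13.4 CPM). Lymphatic endothelial-like cells, which had the highest Tgfbr2, held 4 Tgfbr1 UMIs (10.4 ± 1.94 CPM) and were called lower (adjusted p = 0.030), but not without 1A (0.192), 1B (0.093) or 2B (0.051).

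Tgfbr3, the co-receptor betaglycan, was a gene of smooth muscle-like, fibroblast-like, lymphatic endothelial-like and glia-like cells. Its highest level, in smooth muscle-like cells, was 240 ± 28.1 CPM (log2 fold change 3.04 ± 0.29, adjusted p = 1.1e-23), with 197, 246, 287, 196 and 297 CPM from 1A to 2C. Fibroblast-like cells were at 128 ± 2.58 CPM (2.20 ± 0.20, adjusted p = 1.2e-26), with 129, 132, 127, 145 and 109 CPM, all below the smooth muscle-like values. Lymphatic endothelial-like cells had 115 ± 54.4 CPM (1.79 ± 0.33, adjusted p = 7.3e-07) and glia-like cells 79.7 ± 20.3 CPM (1.35 ± 0.34, adjusted p = 0.00043). The lymphatic level ranged from 33.2 CPM in 2C to 188 CPM in 1B and overlapped both neighbours in the order. T/ILC-like (8 UMIs), macrophage-like (8 UMIs) and B cell-like cells (1 UMI) were called lower (adjusted p = 0.017, 0.00046 and 0.00015). The T/ILC call was lost without 1A (0.068) or 2B (1.0), and the macrophage call without 2B (1.0).

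Tgfbi, the induced matrix protein, was high in 4 classes. Smooth muscle-like cells stood highest at 529 ± 13 CPM (log2 fold change 3.20 ± 0.20, adjusted p = 2.0e-53), followed by macrophage-like cells at 355 ± 24.5 CPM (2.73 ± 0.16, adjusted p = 8.6e-61), lymphatic endothelial-like cells at 337 ± 23.2 CPM (2.34 ± 0.22, adjusted p = 2.5e-25) and fibroblast-like cells at 289 ± 35.5 CPM (2.38 ± 0.14, adjusted p = 5.4e-65). In smooth muscle-like cells the collections gave 602, 466, 589, 451 and 494 CPM, above all 5 macrophage-like collections (307 to 402 CPM). The macrophage-like and lymphatic endothelial-like replicates overlapped. Dendritic-like cells, at 80.0 ± 13.6 CPM, were not called (adjusted p = 0.93). The other 5 classes were lower, from 34.1 ± 3.62 CPM in blood endothelial-like cells (adjusted p = 0.00013) to 6.80 ± 2.71 CPM in T/ILC-like cells (adjusted p = 6.1e-12). For Tgfbi and Tgfbr3 the smooth muscle-like levels exceed those of fibroblast-like cells, whose summed markers in smooth muscle-like cells were given above, and the part of those markers in the result was not tested.

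Read against the background of all 6940 genes tested, the members' calls were unevenly spread over classes. In fibroblast-like cells 7 of 9 were higher (all but Tgfb1 and Inhbb) and 1 lower, where 33.0% and 14.6% of all genes were. The median log2 fold change of the 9 was 1.81, against 0.15 over all genes. In lymphatic endothelial-like cells 5 of 9 were higher (Tgfb2, Tgfb3, Tgfbr2, Tgfbr3 and Tgfbi) and 1 lower, against 20.4% and 13.3%, with a median of 1.79 against -0.03. Inhbb, Tgfbr1 and Inhba reached the filter level in both replicates of 1 class each (blood endothelial-like, macrophage-like and fibroblast-like). Tgfb3 reached it in both replicates of lymphatic endothelial-like and pericyte-like cells only. The higher calls of these genes in those classes followed in part from the filter. Tgfb2 and Tgfbr3 reached it in both replicates of 4 classes each, the lymphatic class among them, and were called higher in all of these. The part of the filter in the Tgfb2 and Tgfbr3 calls was not tested.

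No other class had more than 3 members higher. Smooth muscle-like cells had 3 higher (Inhba, Tgfbi and Tgfbr3) and 1 lower, against 20.1% and 8.66% of genes. Pericyte-like cells had 3 higher (Inhba, Tgfb2 and Tgfb3) and 3 lower, against 14.5% and 6.79%. Glia-like cells had 3 higher (Inhba, Tgfb2 and Tgfbr3) and 2 lower, against 24.2% and 12.6%. Blood endothelial-like cells had 3 higher (Inhbb, Tgfb1 and Tgfbr2) and 2 lower, against 29.2% and 16.7%, and macrophage-like cells 3 higher (Tgfb1, Tgfbi and Tgfbr1) and 2 lower, against 29.1% and 15.1%. The other immune classes had 1 higher each: Inhba in dendritic-like cells, with 1 lower (17.8% and 11.2% of genes), Tgfb1 in T/ILC-like cells, with 4 lower (23.9% and 15.9%), and Tgfb1 in B cell-like cells, with 3 lower (17.4% and 17.3%). The median log2 fold change of the 9 was -1.54 in T/ILC-like cells, against -0.0044 over all genes. In B cell-like cells it was -1.59 against -0.19, and -1.39 at most whatever value is given to Inhba, which had no UMI there.

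Classes of related kind were also compared directly. Blood and lymphatic endothelial-like cells differed in 7 of 9 members, where 21.3% of genes were higher in the blood and 17.2% higher in the lymphatic class. Inhbb and Tgfbr1 were higher in blood endothelial-like cells, and Tgfb2, Tgfb3, Tgfbr2, Tgfbr3 and Tgfbi in lymphatic endothelial-like cells. Tgfbi differed by a log2 fold change of -3.13 ± 0.26 and Tgfbr2 by -2.08 ± 0.19 (blood against lymphatic), and Tgfb3 stood at 1.88 ± 0.31 against 136 CPM. The Tgfbr1 difference (34.5 ± 2.86 against 10.4 CPM, adjusted p = 0.021) was lost without 1A (0.057), 1B (0.076) or 2B (0.067). Tgfb1 did not pass (0.25 ± 0.29, adjusted p = 0.54).

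Pericyte-like and smooth muscle-like cells, both contractile, differed in 3 of 9 members, against 6.95% of genes higher and 8.36% lower in pericyte-like cells. Tgfb3 was higher in pericyte-like cells (2.28 ± 0.64, adjusted p = 0.0045, 0.054 without 1A), whereas Tgfbi (-4.61 ± 0.42) and Tgfbr3 (-2.36 ± 0.44) were lower. Macrophage-like and dendritic-like cells differed in 5 of 9, against 15.7% and 8.53% of genes. Tgfb1 (1.71 ± 0.32), Tgfbi (2.37 ± 0.30), Tgfbr1 (3.04 ± 0.45) and Tgfbr2 (2.11 ± 0.48) were higher in macrophage-like cells. Tgfb2 was lower there (adjusted p = 0.013), but 7 of the 8 dendritic-like UMIs came from 1A and the adjusted p without it was 0.826. Macrophage markers stood at 2160 and 2729 CPM in dendritic-like cells, against 8617 and 10124 CPM in macrophage-like cells.

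Within the fibroblast-like cells, 4 clusters were compared on 8 members, since Inhbb did not pass the filter (11 UMIs). Cluster 1 (1547 cells) was led by Edil3 and Serpina3n, cluster 2 (659) by Plau, Nrg1 and Ptgs2 with raised markers of subepithelial fibroblasts or telocytes (F3, Ednrb, Procr, Plat, Tnc and Col6a5), cluster 3 (550) by Has1, Pcolce2 and Pi16, and cluster 4 (368) by Aldh1a1, Sox6 and Rbp4. Cluster 4 shared raised Ednrb and Procr with cluster 2, and Sox6 and Bmp7 of the same marker list were also raised in it. In cluster 3 only Plat of that list was raised, and in cluster 1 none was. Pi16, Has1 and other markers of adventitial or submucosal fibroblasts were raised in cluster 3. Such markers in cluster 1 were Clec3b and Osr1. The clusters were made without the members. Tgfbi and Inhba were high in clusters 2 and 4 and low in 1 and 3. Tgfb3, Tgfbr2 and Tgfbr3 were highest in cluster 3 followed by cluster 1. Inhba reached the filter level in both replicates of clusters 2 and 4 only, and Tgfb3 in those of clusters 1 and 3 only. Their higher calls there followed in part from the filter.

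Tgfbi was at 667 ± 113 CPM in cluster 4 (log2 fold change against the other 3 clusters 1.40 ± 0.14, adjusted p = 1.3e-22) and 542 ± 20.4 CPM in cluster 2 (1.43 ± 0.12, adjusted p = 2.8e-33). It was at 180 ± 20.6 CPM in cluster 3 and 106 ± 22.1 CPM in cluster 1 (-2.06 ± 0.14, adjusted p = 4.5e-47). By collection cluster 4 gave 767, 720, 520, 752 and 516 CPM, cluster 2 gave 641, 448, 556, 503 and 523 CPM, and no collection of clusters 1 and 3 exceeded 259 CPM. Inhba was at 113 ± 30.2 CPM in cluster 4 (1.53 ± 0.29, adjusted p = 1.7e-06) and 97.1 ± 38.2 CPM in cluster 2 (1.61 ± 0.23, adjusted p = 3.5e-11), against 21.1 ± 5.49 and 20.1 ± 10.3 CPM in clusters 3 and 1. Its values in cluster 4 were 32.0, 173, 163, 166 and 76.9 CPM, and that of 1A, from 3 UMIs, lay within the range of clusters 1 and 3. In cluster 2 they were 132, 114, 62.4, 72.6 and 75.5 CPM, above every collection of clusters 1 and 3, whose highest was 43.1 CPM.

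**Figure D4:**
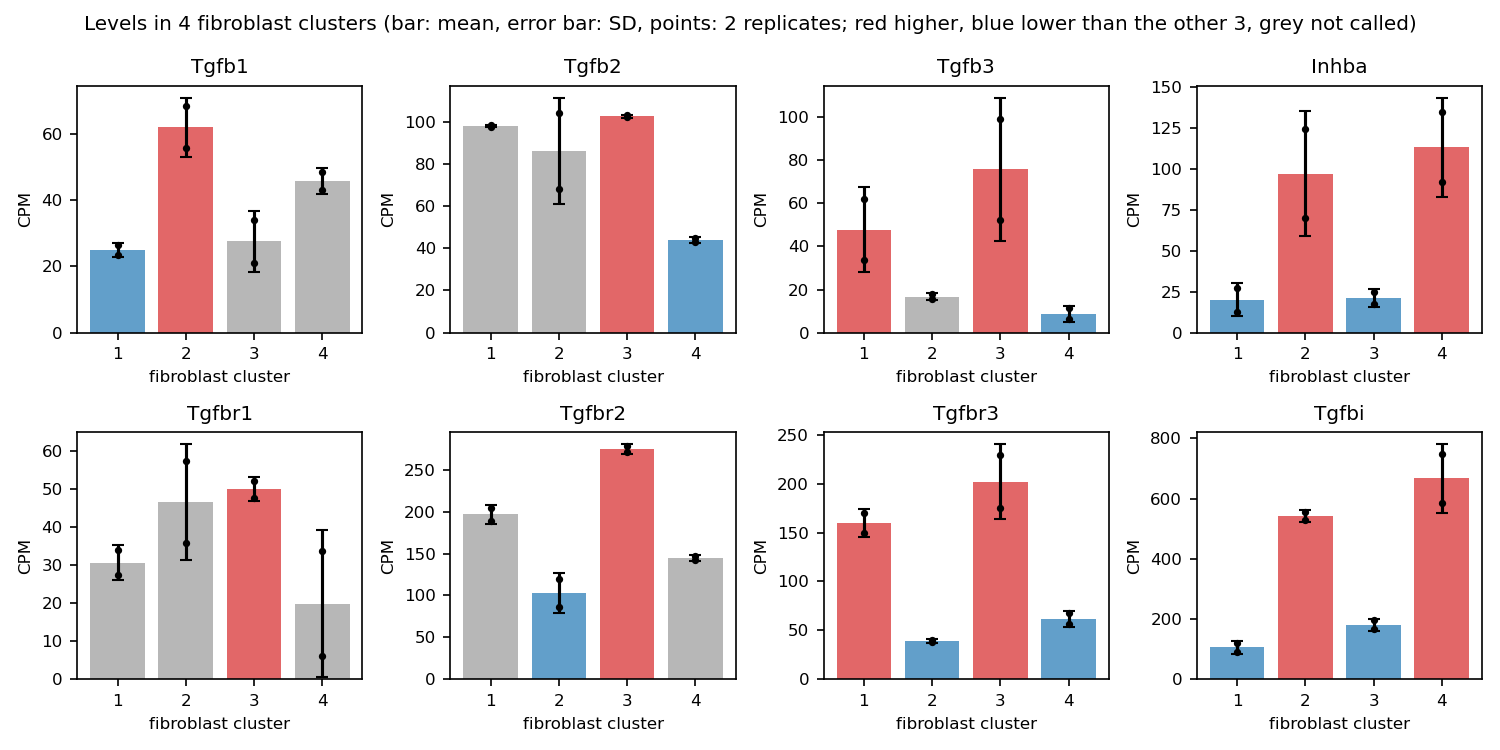
Bars give the mean CPM of 8 genes in 4 clusters of fibroblast-like cells, error bars the SD and points the 2 replicates, with red for clusters called higher, blue for lower and grey for not called. Tgfbi and Inhba are high in clusters 2 and 4, whereas Tgfb3, Tgfbr2 and Tgfbr3 are highest in cluster 3.

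Tgfb3, Tgfbr2 and Tgfbr3 were highest in cluster 3. Tgfbr3 was at 202 ± 38.5 CPM in cluster 3 (1.61 ± 0.18, adjusted p = 1.3e-17) and 160 ± 14.3 CPM in cluster 1 (0.91 ± 0.17, adjusted p = 1.4e-06), and at 39.0 ± 1.85 CPM in cluster 2 (-1.48 ± 0.24, adjusted p = 1.4e-08). In cluster 4 it was also lower (-1.04 ± 0.29, adjusted p = 0.0027), a call lost with DESeq2 (0.069). Every collection of clusters 1 and 3 was at 135 CPM or more and every collection of clusters 2 and 4 at 81.5 CPM or less. Tgfbr2 was at 275 ± 5.56 CPM in cluster 3 (1.06 ± 0.15, adjusted p = 1.6e-11), with 271, 272, 309, 274 and 251 CPM, and at 103 ± 23.5 CPM in cluster 2 (-0.74 ± 0.17, adjusted p = 0.00017). It was not called in cluster 1 (0.17 ± 0.14, adjusted p = 0.43) or cluster 4 (-0.49 ± 0.21, adjusted p = 0.072). Tgfb3 was at 75.8 ± 33.3 CPM in cluster 3 (2.06 ± 0.31, adjusted p = 2.8e-10) and 8.67 ± 3.60 CPM in cluster 4 (-2.17 ± 0.59, adjusted p = 0.0022, 0.058 without 1A and 0.073 with DESeq2). Its higher call in cluster 1 (47.9 ± 19.9 CPM, adjusted p = 0.019) was lost without 1A (0.094), 1B (0.092) or 2C (0.074).

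The remaining members tested were Tgfb1, Tgfb2 and Tgfbr1. Tgfb1 was highest in cluster 2 at 62.0 ± 8.89 CPM (1.19 ± 0.26, adjusted p = 5.9e-05, 0.051 with DESeq2). It was called lower in cluster 1 at 24.9 ± 2.19 CPM (-0.89 ± 0.28, adjusted p = 0.0096, 0.073 without 1A and 0.074 without 2C). The replicates of cluster 1 overlapped those of cluster 3 (27.5 ± 9.21 CPM). Tgfb2 was lower in cluster 4 at 43.9 ± 1.39 CPM (-1.30 ± 0.32, adjusted p = 0.00049). It was called higher in cluster 3 at 103 ± 0.73 CPM (adjusted p = 0.015), but not without 1A (0.323), 2A (0.055) or 2C (0.054). Clusters 1 and 2 were near that level, at 97.9 ± 0.36 and 86.1 ± 25.2 CPM, and were not called. Tgfbr1 passed in cluster 3 (50.0 ± 3.14 CPM, adjusted p = 0.041), a call lost without any 1 of the 5 collections (0.056 to 0.162), and had 46.7 CPM in cluster 2, 30.6 in cluster 1 and 19.9 in cluster 4. Of all 7493 genes tested, 10.3% were higher and 11.4% lower in cluster 1, where 2 and 3 of the 8 members were. In cluster 2, with 3 members higher and 2 lower, these were 16.2% and 5.99%, and in cluster 3, with 5 and 2, 19.7% and 13.9%. In cluster 4, with 2 and 3, they were 9.52% and 11.6%. Immediate-early and heat-shock genes took 3.92% ± 0.31 of UMIs in cluster 2 and 3.30% to 3.42% in the others, and their part in these patterns was not tested.

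The clustering of all cells, from which the classes were named, had divided the fibroblast-like cells into 6, described here without a test. A cluster of 315 cells led by Nrg1, Plau and Il1rl1 had 841 CPM of Tgfbi, 208 CPM of Inhba and 101 CPM of Tgfb1, the highest of the 6 for each. A cluster of 487 cells led by Niacr1 and Rasl11a had 306 CPM of Tgfbi and 19.6 CPM of Inhba. The 349 cells led by Aldh1a1 had 638 and 118 CPM. Among T/ILC-like cells, Tgfb1 was at 158 ± 16.0 CPM in the 84 cells led by Il5, Calca and Gata3 (10 and 9 UMIs in replicates 1 and 2). It was at 90.0 ± 6.06 CPM in the other 305 (26 and 13 UMIs). In 39 blood endothelial-like cells led by Selp, Sele and Madcam1, with 12 cells in replicate 2, Tgfbi was at 196 CPM, Tgfbr3 at 102 CPM and Inhbb at 61.4 CPM, against 17.9, 20.6 and 130 CPM in the other 536. In replicates 1 and 2 the 39 cells held 20 and 9 UMIs of Tgfbi, 16 and 3 of Tgfbr3 and 9 and 2 of Inhbb.

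Other genes of the pathway were read from lists of related function. Of 9 other ligands and relatives, 4 (Inhbc, Mstn, Nodal and Gdf3) were not analysed here, Inhbe and Lefty2 had 1 UMI each, and none of the rest passed the filter. Gdf11 was highest in pericyte-like cells (58.9 ± 47.3 CPM, 16 UMIs) and Lefty1 in fibroblast-like cells (10.5 ± 1.30 CPM). Itgb6, the integrin subunit that activates TGF-beta on epithelium, had 3 UMIs and Tdgf1 had 1.

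Genes that hold or release latent TGF-beta were raised in fibroblast-like cells in 9 of 13 tested and lowered in none, with a median log2 fold change of 2.08 against 0.15 over all genes, of which 33.0% were higher and 14.6% lower. Mmp2, a matrix protease, was at 642 ± 25 CPM there (log2 fold change 3.95 ± 0.12, adjusted p = 5.8e-250). Smooth muscle-like cells had 8 higher and 2 lower, against 20.1% and 8.66% of genes, with a median of 1.56. T/ILC-like cells had 2 higher and 9 lower, against 23.9% and 15.9%, and B cell-like cells 2 and 8, against 17.4% and 17.3%, with medians of -1.97 and -1.70. Mmp14, another protease, was at 2.37 ± 3.35 CPM in B cell-like cells (1 UMI, adjusted p = 3.5e-10), against 495 in fibroblast-like cells. Nrros, the anchor of latent TGF-beta1 on myeloid cells, was highest in macrophage-like cells (144 CPM), with no UMI in smooth muscle-like cells (adjusted p of the lower call = 0.0061). Ltbp4, a latent TGF-beta binding protein, was highest in lymphatic endothelial-like cells (1323 ± 1.5 CPM), and Lrrc32, the anchor GARP, in blood endothelial-like cells (312 ± 30.8 CPM).

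Of 7 further receptors and co-receptors counted, 3 were tested (Acvr1c was not analysed here). Eng (endoglin) was at 573 ± 12 CPM in blood endothelial-like cells (3.71 ± 0.14, adjusted p = 1.6e-160), 264 in glia-like and 185 in lymphatic endothelial-like cells. Acvrl1, the ALK1 receptor of vessels, was highest in blood endothelial-like cells (315 CPM) and Acvr1 in glia-like cells (85.3 CPM), and neither had a UMI in B cell-like cells, where both were called lower (adjusted p = 5.6e-07 and 0.020).

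The calls of Smads, which carry the signal inside the cell, went both ways in the lymphatic class. Of 4 tested, lymphatic endothelial-like cells had Smad2 (75.1 ± 10.4 CPM, adjusted p = 0.0044) and Smad4 higher and Smad3 (2.94 ± 4.16 CPM, 1 UMI, adjusted p = 0.027) and Smad7 lower. Smad7, the inhibitory Smad and a target of the pathway, had 1 UMI (2.26 ± 3.19 CPM, adjusted p = 1.5e-06), against 155 ± 20.5 CPM in blood endothelial-like cells (adjusted p of the direct comparison = 3.8e-16).

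Of 7 antagonists tested, 5 were higher in glia-like cells and none lower, with a median log2 fold change of 1.5 against 0.01 over all genes, of which 24.2% were higher and 12.6% lower. Pmepa1, a membrane protein that sequesters Smads and is also a target gene, was at 597 ± 90.7 CPM (3.22 ± 0.16, adjusted p = 6.0e-88), against 304 in fibroblast-like cells. Fstl3, a follistatin-like activin binder, was highest in smooth muscle-like cells (140 CPM), with no UMI in dendritic-like cells (adjusted p = 0.0025), where Bambi, a decoy receptor, was also lower (1 UMI, adjusted p = 0.034). Fst, which encodes follistatin and was tested in fibroblast-like clusters only, was at 58.4 ± 29.3 CPM in cluster 2 and 55.2 ± 13.8 in cluster 3, against 1.37 ± 1.94 in cluster 1 (3 UMIs, adjusted p = 5.1e-18).

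Of 15 known target genes tested, 14 were higher and 1 lower (Skil) in fibroblast-like cells, 10 and 1 in glia-like cells, 9 and 2 in blood endothelial-like, 9 and 1 in smooth muscle-like and 2 and 4 in lymphatic endothelial-like cells. Over all genes the higher share was 33.0%, 24.2%, 29.2%, 20.1% and 20.4% in these classes and the lower share 14.6%, 12.6%, 16.7%, 8.66% and 13.3%. The median log2 fold change was 2.22 in fibroblast-like, 1.62 in glia-like and 0.08 in lymphatic endothelial-like cells, against 0.15, 0.01 and -0.03 over all genes. Many of these genes are also matrix or immediate-early genes. Of 17 immediate-early and heat-shock genes, 16 were higher in fibroblast-like, 13 in glia-like, 16 in blood endothelial-like, 11 in smooth muscle-like and 9 in lymphatic endothelial-like cells, and their part in the target counts was not tested. Smooth muscle-like cells had Tgfb1i1, a focal adhesion protein, at 476 ± 7.67 CPM (4.39 ± 0.25, adjusted p = 1.1e-68), and Timp1 had no UMI in B cell-like cells (adjusted p = 0.031). Among fibroblast-like clusters 10 of 15 were higher and 1 lower in cluster 2, against 1 and 8 in cluster 4 (medians 0.52 and -0.57, against 0.02 and -0.02 over all genes), and both clusters were high in Tgfbi and Inhba. Over all genes 16.2% were higher and 5.99% lower in cluster 2, and 9.52% and 11.6% in cluster 4. The immediate-early and heat-shock list had 12 higher and 1 lower in cluster 2 and 4 higher and 6 lower in cluster 4, and its part was not tested. Smad7 was at 86.2 ± 7.57 CPM in cluster 2 and 15.5 ± 4.55 in cluster 4, and Tgfb1i1 at 75.5 ± 20.4 and 140 ± 18.4.

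The 3 genes most like each member were found by Pearson's r of the mean log2(CPM + 10) over the 10 classes, among 6939 others, as a description. The classes share libraries and differ in depth. Inhbb was most like Mcf2l (0.99), Endou (0.99) and Thrsp (0.98), and Tgfb2 most like Col18a1 (0.95), Serpine2 (0.94) and Ttyh1 (0.94). Tgfb1 was nearest Ube2q1 (0.95), Rnf111 (0.93) and Abcg1 (0.93), and Tgfb3 nearest Igfbp5 (0.94), Adamtsl1 (0.93) and Ccdc141 (0.93). For the receptors these were 1110007C09Rik (0.94), Mknk1 (0.93) and Slc11a2 (0.92) for Tgfbr1, Fam174b (0.93), Il33 (0.92) and Lmf2 (0.91) for Tgfbr2, and Capns1 (0.98), Selm (0.96) and Ryk (0.96) for Tgfbr3. Tgfbi was nearest Nagk (0.92), Lamtor4 (0.91) and Lipa (0.90), and Inhba nearest Meg3 (0.93), Gpx8 (0.92) and Lama2 (0.92).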

How the data were processed

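The authors deposited a table of UMI counts per gene and barcode, not normalized, for each of the 5 collections. STAR 2.6 and the mm10 build are named in the submitters' processing notes, and the counting program is not given in the sources used here. Barcodes with under 300 genes (1263) or over 10% mt- UMIs (667) were left out, as were 23 called doublets by Scrublet. That is 0.383% of those left, too few for the caller to have worked, so doublets may remain. Leiden clusters were computed in scanpy 1.11.5 (10000 UMIs per cell, log scale, 2000 variable genes, 30 components, 15 neighbours, resolution 1.0, or 0.5 among fibroblast-like cells), with the members and pathway genes kept out, and named "-like" from at least 3 raised markers. UMIs were summed per class and replicate where each had 20 or more cells. The sums were tested with edgeR 4.0.16 (R 4.3.3): low-count filter, TMM scaling and the quasi-likelihood test, each class against the mean log level of the others, two-sided, with the replicate as a block because sums of 1 replicate come from 1 suspension. Adjusted p-values are Benjamini-Hochberg over all genes tested (6940 in classes, 7493 in fibroblast-like clusters) and were called under 0.05. Exact intervals cover counting error only. Counts were simulated with the same size of change in every changed gene, a fixed spread and no other difference between classes or clusters. Of the changed genes left after the filter, 139 of 163 were recovered for the B cell class and 180 of 188 for cluster 1. Changes of other sizes were not simulated, so these shares do not hold for them. Named beside the members were up to 3 called genes of each pathway list with the largest change, list genes with under 10 UMIs and the 3 genes most like each member. Other pathway genes were named after their values were seen. The values of 1 target gene are not reported here. The members and lists were chosen with earlier results of these data known. Alternatives were DESeq2 1.42.0, no low-count filter, no replicate block, sums per collection, other cell filters and resolution, UMIs split between clusters and sums, and each collection left out.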

Additional observations from a re-analysis of the deposited data

Results flagged for a closer look

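In 2 of 18 groups of 5 collections examined, 1 collection stood apart from the other 4, where chance marks about 1 in 20. Tgfb3 in lymphatic endothelial-like cells was at 183 CPM in 1A (24 UMIs) and at 110 to 125 CPM in the others, a gap of 0.805 of the whole range. Inhba in pericyte-like cells was at 153 CPM in 1B (12 UMIs) and at 0 to 44.4 CPM in the others, a gap of 0.711.

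UMIs of members were also counted in cells too few to be tested, above the limit that 3 counts set. Free RNA can add UMIs to such cells, and its part was not tested. Summed fibroblast markers stood at 668 to 5046 CPM in the neuron-like, epithelial-like and plasma cell-like groups, against 934 to 4499 CPM in 8 tested classes other than fibroblast-like and smooth muscle-like cells. In 27 enteric neuron-like cells Tgfb2 was at 195 CPM (22 UMIs, exact 95% interval 122 to 295), Tgfbr1 and Tgfbr2 at 44.3 CPM each and Tgfbr3 at 35.4 CPM, against a limit of 26.6 CPM. The Tgfb2 value came almost wholly from replicate 1. There the neuron-like cells held 3.70% of Tgfb2 UMIs and 1.62% of all UMIs, against 0.23% and 0.54% in replicate 2. Glia markers, from the class highest in Tgfb2, stood at 1070 and 116 CPM in those cells, and macrophage-like cells had 2.94 CPM of Tgfb2. In 22 epithelial-like cells Tgfbr2 was at 80.2 CPM (limit 40.1 CPM). In 41 plasma cell-like cells Tgfbr2 was at 74.5 CPM and Tgfbr1 at 27.1 CPM (limit 20.3 CPM). In 33 unnamed cells led by the division genes Top2a and Cenpf, Tgfbi was at 425 CPM (40 UMIs, exact 95% interval 303 to 578), Tgfb1 at 84.9 CPM and Tgfbr2 at 53.1 CPM (limit 31.9 CPM). Fibroblast markers in those unnamed cells stood at 26447 and 18613 CPM. Tgfbr2 in these 4 groups lay within the 26.9 to 126 CPM of the 8 classes other than lymphatic endothelial-like and fibroblast-like cells. These include blood endothelial-like cells (126 CPM), which were called higher, so the range is not a level of free RNA. Whether Tgfbr2 in the 4 groups lay above such a level was not tested.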

How the results depend on the processing

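Over the 10 classes the members gave 30 higher and 20 lower calls, over the 4 fibroblast-like clusters 12 and 10, and between related classes 15. When UMIs were split between clustering and sums, which leaves fewer counts, the lower calls fell to 12 over classes and 6 over fibroblast-like clusters. Under the other 13 alternatives each of the 5 counts stayed within 1.5 times. Of 87 calls, 58 passed under all 14 alternatives and none changed direction. Inhba was not tested over classes with sums per collection, and its class calls were counted as not passing there. For its calls in fibroblast-like and smooth muscle-like cells this was the only alternative not passed. Most were lost with split UMIs (19), DESeq2 (15) and without 1A (15), and 3 without the replicate block. Tgfbr1 in fibroblast-like cluster 3 was lost under 10 alternatives and Tgfb3 in cluster 1 under 8. With 2 replicates and sums holding under 10 UMIs of several members, small differences between low levels cannot be resolved.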
